A study of Mus musculus with 36 samples.

Results

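The lungs of mice given 1 of 2 mixtures of oil and dispersant were compared. The mixtures differed in the dispersant, which was Corexit 9527 in 9527+oil and Corexit 9500 in 9500+oil. The comparison used 12 of the 36 mice of the series, which are all mice whose label gives either mixture. They were 6 mice a side, with 3 female and 3 male mice (mice 16 to 18) for 9527+oil and 3 female and 3 male mice (mice 13 to 15) for 9500+oil. All were wild-type C57BL/6 mice, 8 weeks old at the start, and a mouse number is not shared by the treatments. The study's other mice received saline, oil, Corexit 9500 or Corexit 9527, again 6 mice each. Every mouse received 50 µL on days 0, 7 and 13 at a concentration of 0.1 WAF, the accommodated fraction of the agent in a salt solution, and was killed on day 14. For the mixtures, 1 part of MC252 oil and 0.5 part of dispersant were added to 20 parts of HBSS, a buffered salt solution, and the fraction was diluted 10-fold. The agents reached the lung by oropharyngeal aspiration according to the study's methods and by intratracheal instillation according to the labels. The sexes were treated separately, so sex and experiment cannot be told apart.

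Dispersants are mixtures of surfactants and solvents that break oil into small droplets. A main component of Corexit 9527 is 2-butoxyethanol, a glycol ether solvent, which Corexit 9500 does not hold. Crude oil holds polycyclic aromatic hydrocarbons, which bind the aryl hydrocarbon receptor (AhR). The receptor then enters the nucleus and turns on genes of drug metabolism such as Cyp1a1. Inhaled irritants are also known to act on the airway epithelium, on alveolar macrophages and on secreted host defence proteins.

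Reads of the left lung were counted per gene as estimated (expected) counts by the authors. The 12 libraries held 17532403 to 26818382 counts. Lung markers were present in all of them, with at least 8420 CPM (counts per 1000000 counts of the library) of Sftpc of alveolar type 2 cells and at least 10300 CPM of Scgb1a1 of club cells. Female 9500+oil mouse 14 stood apart from the rest. Mitochondrially encoded genes held 20.67% of its counts against 5.398% to 8.935% in the other 11 mice. Its log2 ratio of counts on GC-rich over GC-poor genes was -2.22 (relative to the median of all 36 mice), against -0.051 to 0.322 in the others. It had 1401 genes, of 14068 with a mean of at least 1 CPM, at more than 2 times the highest of the other 5 female mice, where each of the other 11 mice had 1 to 26 such genes. Log2 fold changes and list medians of the mixtures that moved by over 1.5 times without this mouse are therefore given both ways. Y-linked genes separated the sexes as labelled, and no pair of libraries of a group agreed within sampling noise. The p values weigh a difference against the spread between these mice.

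The first question was whether lung expression differed between the mixtures. No gene of 14807 was called (0%) over both sexes when sex was a covariate in the quasi-likelihood test of edgeR, and the lowest adjusted p was 0.865. Unadjusted, 273 genes (1.84%) had a p under 0.05, of which 88 (0.594%) were higher and 185 (1.25%) lower with 9527+oil. DESeq2's Wald test called 1 gene, Pcx, with 420 genes at an unadjusted p under 0.05, and limma-voom called none, with 781. Without female 9500+oil mouse 14 the edgeR test called none of 14913 genes, and 448 genes (3%) were at an unadjusted p under 0.05. The data also bound the difference. The 95% interval of the fold change lay within a 2-fold change in either direction for 85.2% of the genes and for 93.4% of genes with a mean of at least 10 CPM. The median standard error of a log2 fold change was 0.195, and it was 0.115 without female 9500+oil mouse 14. Genes named below had an adjusted p of 0.865 or more in this comparison, so their p values are given unadjusted, and the differences are described without being called.

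**Figure D1:**
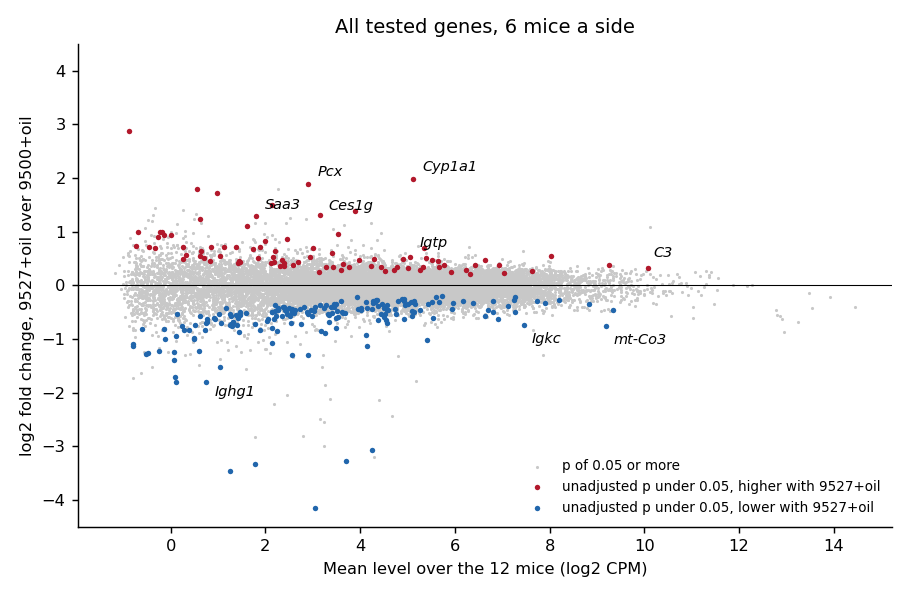
Each point is 1 of the 14807 tested genes, with its mean level over the 12 mice (log2 CPM) on the x axis and its log2 fold change, 9527+oil over 9500+oil, on the y axis. Red and blue points are the 88 and 185 genes at an unadjusted p under 0.05, and most genes lie close to 0.

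Among the genes with the smallest p on the higher side were interferon-inducible GTPases. These proteins are made when interferon gamma reaches a cell. They gather on the vacuoles of intracellular microbes and take part in membrane turnover. Igtp, also known as Irgm3, was at 43.9, 35.7 and 44.9 CPM in the female and 44.3, 27.6 and 32.8 CPM in the male 9527+oil mice. With 9500+oil it was at 26.7, 30.3 and 24.1 CPM in female and 26.1, 23.2 and 28.3 CPM in male mice. All 3 female 9527+oil mice lay above the female 9500+oil mice, and 1 male 9527+oil mouse lay between the male 9500+oil mice. The log2 fold change was 0.52 ± 0.134 (SE; unadjusted p = 0.00199 in edgeR's test, adjusted p = 0.865), and it was 0.55 without female 9500+oil mouse 14 (unadjusted p = 0.000748).

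The fit gave 3 relatives of Igtp on the same chromosome a higher level with 9527+oil as well. Irgm1, which restrains the other GTPases, was at 50.8, 43.5 and 41.4 CPM in female 9527+oil mice and at 42.1, 34.2 and 32.1 CPM in female 9500+oil mice. In male mice it was at 37.7, 38 and 33.7 CPM against 29.3, 33.1 and 29.4 CPM, where the groups did not overlap. Its log2 fold change was 0.29 ± 0.103 (unadjusted p = 0.0165). For Irgm2 the value was 0.38 ± 0.141 (unadjusted p = 0.0194), and for Tgtp1, named after its values were seen, it was 0.47 ± 0.198 (unadjusted p = 0.035). Both had their highest female 9500+oil level in mouse 14, with 114 CPM of Irgm2 and 19.3 CPM of Tgtp1, and without that mouse their log2 fold changes were 0.5 and 0.59. Igtp (chr11:58199556-58207591 in GRCm38) overlaps Irgm2 (chr11:58199618-58222782) in GENCODE M21, so the counting could split their reads, as it could between Tgtp1 and its near-identical neighbour Tgtp2. All 4 differences kept their sign under each alternative run and without each mouse in turn.

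The promoters of these 4 genes are shown because interferons act on them through 2 known motifs. Capitals mark matches to the GAS motif, TTCNNNGAA, through which interferon gamma acts, and to the ISRE motif, searched as 2 GAAA half-sites with any 2 bases between them, which binds IRF proteins. Both strands were searched, and the 2 motifs did not overlap each other in these windows, which run from 250 bases before to 50 bases after the RefSeq start on GRCm38.p6.
Igtp (chr11:58199306-58199605, + strand): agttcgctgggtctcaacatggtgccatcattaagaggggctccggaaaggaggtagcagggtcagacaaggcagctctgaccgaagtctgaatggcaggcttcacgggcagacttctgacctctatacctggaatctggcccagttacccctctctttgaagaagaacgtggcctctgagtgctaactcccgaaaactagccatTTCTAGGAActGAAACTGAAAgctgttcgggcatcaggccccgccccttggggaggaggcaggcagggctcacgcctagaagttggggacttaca
Irgm1 (chr11:48871371-48871670, - strand): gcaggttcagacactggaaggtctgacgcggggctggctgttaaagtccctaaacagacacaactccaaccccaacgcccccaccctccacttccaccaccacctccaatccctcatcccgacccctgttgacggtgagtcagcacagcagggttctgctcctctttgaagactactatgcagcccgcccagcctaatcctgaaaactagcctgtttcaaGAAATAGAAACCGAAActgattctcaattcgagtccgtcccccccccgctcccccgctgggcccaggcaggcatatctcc
Irgm2 (chr11:58214727-58215026, + strand): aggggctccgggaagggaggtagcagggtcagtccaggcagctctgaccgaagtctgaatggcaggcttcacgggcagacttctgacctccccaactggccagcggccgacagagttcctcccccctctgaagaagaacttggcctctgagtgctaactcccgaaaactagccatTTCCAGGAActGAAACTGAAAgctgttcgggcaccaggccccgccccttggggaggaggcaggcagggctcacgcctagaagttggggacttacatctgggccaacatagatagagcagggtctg
Tgtp1 (chr11:48992197-48992496, - strand): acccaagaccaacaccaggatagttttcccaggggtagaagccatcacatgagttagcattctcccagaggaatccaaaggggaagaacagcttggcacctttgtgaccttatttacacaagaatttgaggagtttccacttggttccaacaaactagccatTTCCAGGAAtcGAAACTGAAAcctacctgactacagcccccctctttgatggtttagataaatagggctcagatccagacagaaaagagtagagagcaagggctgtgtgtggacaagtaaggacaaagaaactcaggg
Igtp, Irgm2 and Tgtp1 held both motifs with 2 bases between them. The GAS match began 45 bases before the start in Igtp, 75 in Irgm2 and 88 in Tgtp1. Irgm1 held 2 overlapping ISRE pairs, the first at 30 bases before the start, and no GAS match. Of the 32851 promoters of the table, 8.3% held a GAS match and 3.44% an ISRE pair. These matches describe the sequence and are no measure of binding.

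In the list of 47 interferon-induced genes, 46 were tested, with 30 higher and 16 lower in 9527+oil mice. Only the 4 GTPases above were at an unadjusted p under 0.05, all higher, which is 4 of 46 members where 0.594% of all genes were. The median log2 fold change of the list was 0.12 against -0.006 for all genes. Without female 9500+oil mouse 14 the count was 12 of 46 members, all higher, beside 1.46% of all genes, and the median was 0.157. The 12, of which those beyond the 4 GTPases are named after their values were seen, then included Stat2 (0.18), a transcription factor of the type I interferon signal, and Tap1 (0.23), which loads peptides for MHC class I. Ifit3 and Ifit2, which type I interferon is known to raise and which are also named after their values were seen, had log2 fold changes of -0.22 (unadjusted p = 0.248) and -0.24 (unadjusted p = 0.285), and of 0.001 and 0.02 without that mouse. Without both 9527+oil mice numbered 16, chosen after the data were seen, the 4 GTPases were at 0.398 (Igtp), 0.228 (Irgm1), 0.287 (Irgm2) and 0.226 (Tgtp1), and the median of the list was 0.023. Medians of Igtp were 25.1 CPM for Corexit 9527, 25.3 CPM for Corexit 9500, 28 CPM for oil and 32.2 CPM for saline. These lay below the 39.8 CPM of 9527+oil, beside 26.4 CPM for 9500+oil. The highest single mouse held 49.6 CPM with Corexit 9527 and 46.5 CPM with oil, above all 9527+oil mice. It held 32.8 CPM with Corexit 9500 and 37.9 CPM with saline.

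Secreted host defence proteins made a further group on the higher side. Complement component C3, the protein on which all complement pathways converge, was at 871, 927 and 833 CPM in female 9527+oil mice against 736, 739 and 711 CPM in female 9500+oil mice. In male mice it was at 1430, 1510 and 1500 CPM against 1130, 1010 and 1240 CPM. The treatments did not overlap in either sex, which held for 0.182% of all genes in this direction. The log2 fold change was 0.33 ± 0.094 (unadjusted p = 0.00439). It ranged from 0.285 to 0.356 when any 1 mouse was left out. Its median was 1180 CPM for 9527+oil and 875 CPM for 9500+oil, the lowest of the 6 treatments, beside 1290 CPM for Corexit 9527, 1100 CPM for Corexit 9500, 1330 CPM for oil and 1280 CPM for saline.

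C4b of the classical pathway also did not overlap in either sex, with a log2 fold change of 0.54 ± 0.249 (unadjusted p = 0.0496). Mouse 14 held 52.1 CPM of it against 181 to 193 CPM in the other female 9500+oil mice, and without that mouse the value was 0.35 (unadjusted p = 0.000695). Its reads may be shared with a near-identical copy of the gene. Cfb of the alternative pathway gave 0.55 ± 0.272 (unadjusted p = 0.0635), and 0.36 without mouse 14 (unadjusted p = 0.00383). Of 26 genes of hemostasis and complement, 17 were higher and 9 lower, 2 of them higher at an unadjusted p under 0.05 (C3 and C4b, beside 0.594% of all genes), and the median was 0.076. Without mouse 14 these were 4 of 26, beside 1.46% of all genes, and 0.043.

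Pigr, the receptor that carries IgA and IgM across the airway epithelium, was at 71.1 to 133 CPM with 9527+oil (median 115 CPM) and at 61.6 to 107 CPM with 9500+oil (median 76.8 CPM), with a log2 fold change of 0.48 ± 0.157 (unadjusted p = 0.00947). The medians of Pigr in the other 4 treatments were 96.5 to 113 CPM, above that of 9500+oil. Saa3, an acute phase protein of epithelium and macrophages, was at 1.3 to 9.76 CPM against 0.64 to 3.83 CPM, with 1.29 ± 0.449 (unadjusted p = 0.0137). Saa3 overlapped between the mixtures in both sexes, and saline mice reached 53.3 CPM of it. Of 25 tested genes of the acute phase and secreted host defence list, 19 were higher and 6 lower. C3, Pigr and Saa3 were its 3 members at an unadjusted p under 0.05, all higher as were 0.594% of all genes, and its median was 0.171 and 0.096 without mouse 14. Among 38 cytokines and chemokines the median was 0.027 with 19 on either side, and 0.015 without mouse 14. Csf1, the growth factor of macrophages, did not overlap in either sex and gave 0.21 ± 0.082 (unadjusted p = 0.0227), or 0.087 with GC and length offsets, and Ccl2, which draws monocytes, gave 0.5 ± 0.228 (unadjusted p = 0.0474) at levels near 1 CPM.

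**Figure D2:**
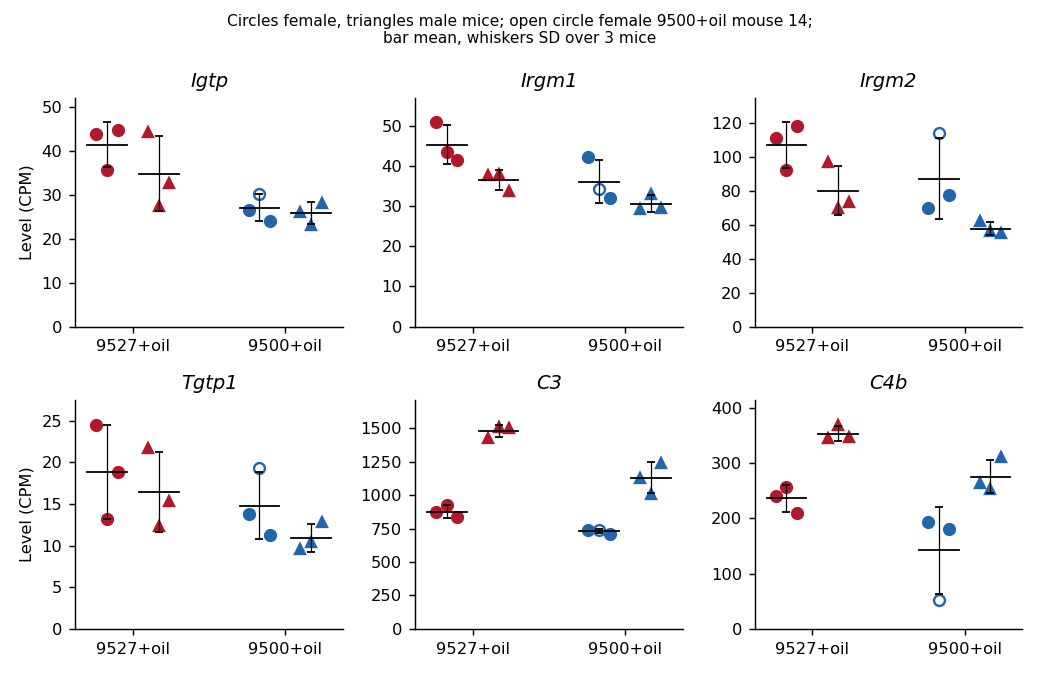
Level in CPM of 4 interferon-inducible GTPases and 2 complement genes in each of the 12 mice, with the mean and SD over 3 mice of a sex and treatment. C3 and C4b do not overlap between the mixtures in either sex, and the open circle of female 9500+oil mouse 14 is the highest of its group for Igtp, Irgm2 and Tgtp1 and the lowest for C4b.

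Among targets of the AhR, single mice stood apart. Cyp1a1, the monooxygenase that metabolizes polycyclic aromatic hydrocarbons and the best known target of the receptor, was at 66 CPM in female 9527+oil mouse 16 against 5.37 and 9.45 CPM in the other female 9527+oil mice. In male 9527+oil mouse 16 it was at 204 CPM against 18.5 and 19.5 CPM in the other male 9527+oil mice. The 9500+oil mice held 6.19 to 7.97 CPM in female and 14.2 to 24 CPM in male mice. The other 4 mice of 9527+oil thus lay within or close to the range of 9500+oil, and the log2 fold change of 1.99 ± 0.686 (unadjusted p = 0.0128) was 0.016 without the 2 mice numbered 16. The labels do not say whether equal numbers in the 2 sexes share a batch.

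In female mouse 16 there were 7 genes at 2 or more times the highest of the other 5 female mice, and in male mouse 16 there were 26 such genes among male mice, where the other mice but female mouse 14 had 1 to 10. Male mouse 16 also lay apart from its group, with a chi-square per gene of 47.1 and 48.1 against male mice 17 and 18, which had 12 between them. The 5 genes in both sets, chosen after the values were seen, were Cyp1a1, Ces1f, Ces1g, Nqo1 and Siglech. Ces1f and Ces1g are carboxylesterases, which split ester bonds of drugs and lipids, and Nqo1 is a quinone reductase that the AhR and Nrf2 both control. Ces1g was at 16.5 CPM in female and 35.9 CPM in male mouse 16, against at most 4.34 and 6.64 CPM in the other mice of the sex. Ces1f was at 23.4 and 33.6 CPM against at most 7.65 and 10.1 CPM, although reads of these 2 related genes could be split by the counting. Nqo1 was at 10.8 and 12.6 CPM against at most 5.39 and 4.99 CPM. Siglech, a receptor of plasmacytoid dendritic cells, was at 8.52 and 7.55 CPM against at most 2.99 and 3.75 CPM.

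The same enzymes were high in 1 mouse of another treatment, which was picked as the Corexit 9527 mouse with the highest Cyp1a1. Male Corexit 9527 mouse 12, which had no oil, held 246 CPM of Cyp1a1, 28.9 CPM of Ces1g, 29.8 CPM of Ces1f and 9.51 CPM of Nqo1. The highest of the other 5 male mice given a dispersant without oil held 14, 7.68, 6.82 and 4.9 CPM of these genes. Cyp1a1, Ces1g and Ces1f were at 2 or more times that level in mouse 12, and Nqo1 was not. Siglech was not either, with 4.1 CPM against at most 3.34 CPM. No saline or oil mouse exceeded 26.3 CPM of Cyp1a1, although 1 oil mouse held 17.7 CPM of Ces1f. That level was the highest of all mice not given Corexit 9527, so any mouse above it had to be one given Corexit 9527. There were 3 such mice of the 36, and the other 9 mice given Corexit 9527, with or without oil, lay below it.

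Other AhR genes were mixed. Of 13 tested members of the list, 6 were higher and 7 lower, with 3 higher at an unadjusted p under 0.05 (Cyp1a1, Nqo1 and Ugt1a6a, a glucuronosyltransferase, beside 0.594% of all genes) and a median of -0.004. Without mouse 14, 10 were higher and 3 lower with a median of 0.055. Cyp1b1 was at 17.3 CPM in female and 27.6 CPM in male mouse 16, the highest of each sex, and at 11.2 to 17 CPM in the other mice. Tiparp, which is induced by the AhR and limits it, was at 39.5 and 32.3 CPM in the mice numbered 16 within the range of the other mice of each sex. The repressor Ahrr was at most 1.1 CPM in these 12 mice. Of the 13 members, 4 were highest in female mouse 16, where 7.2% of all genes were highest in that mouse among female mice, and 7 were highest in male mouse 16, where 23.2% of all genes were. Female mouse 14 was highest for 5 members (41.1% of all genes) and male mouse 18 for 4 (15.5%). The mice numbered 16 were singled out by Cyp1a1, which is counted among their members, so their counts depend on that choice. Nqo1, Ugt1a6a, Ces1f and Ces1g had log2 fold changes of 0.86, 0.38, 0.95 and 1.31 with all mice and of 0.196, 0.162, 0.05 and 0.126 without the mice numbered 16.

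The promoter of Cyp1a1 is given because the receptor binds near this gene. Capitals mark the core motif of the AhR, GCGTG, searched on both strands.
Cyp1a1 (chr9:57697363-57697662, + strand): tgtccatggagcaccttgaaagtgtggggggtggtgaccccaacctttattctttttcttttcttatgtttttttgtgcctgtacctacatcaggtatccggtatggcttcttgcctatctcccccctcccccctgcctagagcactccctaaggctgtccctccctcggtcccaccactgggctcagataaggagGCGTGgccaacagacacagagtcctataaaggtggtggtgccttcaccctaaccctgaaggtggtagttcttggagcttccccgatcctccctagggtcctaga
The window held 1 match, 54 bases before the RefSeq start, and 32.4% of all promoters held at least 1. The known response elements of the gene lie further upstream, outside this window.

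**Figure D3:**
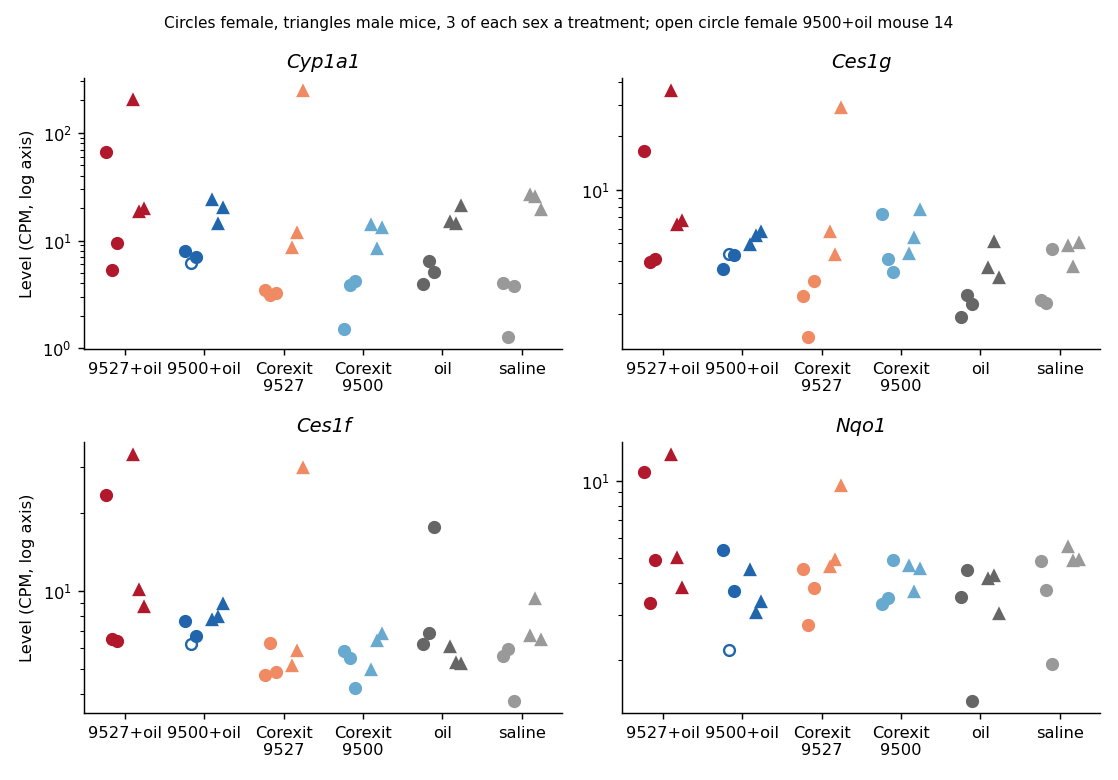
Level in CPM on a log axis of Cyp1a1, Ces1g, Ces1f and Nqo1 in all 36 mice by treatment. In each panel female and male 9527+oil mouse 16 lie at 2 or more times the other 5 mixture mice of their sex. Male Corexit 9527 mouse 12 lies above the other 5 male mice given a dispersant without oil. The genes and mice were chosen after their values were seen.

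Of 41 tested genes of lung xenobiotic metabolism, 23 were higher and 18 lower, with 3 higher (Ces1g, Ces1f, Nqo1) and 1 lower (Fmo1) at an unadjusted p under 0.05, beside 0.594% and 1.25% of all genes. Fmo1, a flavin monooxygenase named after its values were seen, had mean levels of 515 CPM with 9527+oil and 736 CPM with 9500+oil. It did not overlap in either sex, which held for 0.203% of all genes in this direction. Its log2 fold change was -0.45, and -0.2 without mouse 14. Among 25 genes of the Nrf2 oxidative stress response, 18 were higher and 7 lower with a median of 0.17 (0.089 without mouse 14), and 1, Nqo1, was higher at an unadjusted p under 0.05 (0.594% of all genes), against 2 of 26 without mouse 14 (1.46% of all genes). Hmox1, the heme oxygenase of oxidative stress, was at 39.8 to 44.5 CPM with 9527+oil and 24.5 to 47.1 CPM with 9500+oil (log2 fold change 0.2 ± 0.139, unadjusted p = 0.173, and 0.11 without mouse 14). Cdkn1a, the p53 target that halts the cell cycle, gave 0.23 ± 0.152 (unadjusted p = 0.159).

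Igkc and Ighg1, both immunoglobulin genes, were among the named genes on the lower side. Igkc, the constant part of the kappa light chain, was at 119, 76.2 and 87.9 CPM in female 9527+oil mice and 157, 327 and 152 CPM in female 9500+oil mice, which did not overlap. In male mice it was at 203, 151 and 146 CPM against 205, 250 and 170 CPM, which did. The log2 fold change was -0.74 ± 0.241 (unadjusted p = 0.00897) and -0.49 without mouse 14. Ighg1 of the IgG1 heavy chain was at 0.324 to 1.38 CPM against 0.543 to 7.64 CPM, with -1.8 ± 0.538 (unadjusted p = 0.00562). Without male 9500+oil mouse 14, the highest, it was -1.17 (unadjusted p = 0.0357), and with limma-voom -0.82 (unadjusted p = 0.154). Ms4a1, which encodes the B cell antigen CD20, gave -0.57 ± 0.243 (unadjusted p = 0.0364), and -0.38 without female mouse 14 (unadjusted p = 0.0643).

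Of 26 tested B cell and plasma cell genes, 21 were lower and 5 higher, with 3 lower at an unadjusted p under 0.05 (1.25% of all genes) and a median of -0.277. The median was -0.295 without mouse 14 and -0.58 without both mice numbered 16, which had the highest values of the list among the 9527+oil mice of their sex. Of 34 T cell and NK cell genes, 28 were lower and 6 higher with a median of -0.101 (-0.063 without mouse 14). Trbc2, a constant part of the T cell receptor, gave -0.36 ± 0.151 (unadjusted p = 0.0336), and Gzmb, the granzyme of killer cells, gave 0.34 ± 0.145 (unadjusted p = 0.0384). In whole lung, fewer cells of a type and less RNA per cell cannot be told apart. Thymocyte markers, of which 5 were tested, had a summed level of 61.4 to 104 CPM with 9527+oil and 71 to 120 CPM with 9500+oil. Their part in these values was not tested.

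Neutrophil genes overlapped widely between the mixtures. Of 14 tested members 13 were higher with 9527+oil, none at an unadjusted p under 0.05, and the median was 0.357. It was -0.102 in female and 0.839 in male mice. The summed level of the list was 314 to 1650 CPM with 9527+oil and 275 to 1040 CPM with 9500+oil. Csf3r, the receptor for the neutrophil growth factor G-CSF, was at 139, 373 and 513 CPM in male 9527+oil mice and at 308, 155 and 129 CPM in male 9500+oil mice, which overlapped, and gave 0.65 ± 0.332 (unadjusted p = 0.0734). The median of the list was 0.198 without male 9527+oil mouse 18 and 0.221 without male 9500+oil mouse 14, and it was 0.673 without male 9500+oil mouse 13, 0.664 without female 9500+oil mouse 14 and 0.557 without female 9527+oil mouse 17. Other settings gave 0.347 to 0.984, the highest with limma-voom. Adam8, a protease of activated leukocytes, gave 0.45 ± 0.188 (unadjusted p = 0.0315), and the median of 25 matrix metalloproteinase genes and inhibitors was 0.121.

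Several lower genes moved with mouse 14. The mitochondrial gene mt-Co3, a subunit of cytochrome c oxidase, was at 277 to 526 CPM with 9527+oil and 493 to 1040 CPM with 9500+oil and did not overlap in either sex, which held for 0.203% of all genes in this direction. Its log2 fold change was -0.76 ± 0.197 (unadjusted p = 0.00206) and -0.55 without mouse 14 (unadjusted p = 0.000561). Of the 13 mitochondrially encoded genes 12 were lower both with and without mouse 14, with medians of -0.578 and -0.114. In male mice, which that library does not touch, mt-Co3 was at 526, 464 and 448 CPM against 599, 867 and 747 CPM, and 11 of the 13 were lower with a median of -0.143.

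The remaining genes with the smallest p had varied roles. On the lower side they were Pla2g1b, a secreted phospholipase (-0.42), Fignl1, an ATPase of DNA repair (-0.69), Kbtbd3 (-1.22), Kcnrg (-0.63), Adpgk, an ADP-dependent glucokinase (-0.92), Avpr1a, a vasopressin receptor (-0.83), Emcn, an endothelial sialomucin (-0.56), Skap1, an adaptor of T cell adhesion (-0.45), and Fdft1, the squalene synthase (-0.54). Pla2g1b was at 11.4 to 15 CPM in female 9527+oil mice and 18.4 to 21 CPM in female 9500+oil mice, and at 12.3 to 14.2 CPM against 14.8 to 17.4 CPM in male mice. For Adpgk and Kbtbd3 mouse 14 held the highest level, 51.3 and 3.91 CPM, and without it the log2 fold changes were -0.59 and -0.91. On the higher side they were Wnt2b, a Wnt ligand (0.43, or 0.165 with GC and length offsets), Bdkrb2, the bradykinin B2 receptor (0.59), Sema4b, a semaphorin (1.5), Dopey2 (0.7), E2f3, a transcription factor of the cell cycle (1.79), and Pcx.

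Pcx, pyruvate carboxylase (chr19:4510472-4621752), had the smallest p of the named genes and was the gene that DESeq2 called. It was at 12.8, 4.91 and 9.7 CPM in female and 9.05, 16.5 and 13.7 CPM in male 9527+oil mice. With 9500+oil it was at 2.76, 0.498 and 2.11 CPM in female and 4.17, 2.2 and 7.31 CPM in male mice, without overlap in either sex. The log2 fold change was 1.9 ± 0.406 (unadjusted p = 0.000483) and 1.67 without mouse 14. Its level was uneven in the other treatments too, from 0 CPM in 1 female oil and 1 female saline mouse to 34.4 CPM in 1 female Corexit 9500 mouse.

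The median log2 fold change of mitosis genes was below 0 between the mixtures, by an amount that moved with sex and with mouse 14, and above 0 between the dispersants where no oil was given. The same contrast of the 2 dispersants was read in the 12 mice that received Corexit 9527 or Corexit 9500 without oil, none of which is shared with the mixtures. edgeR called none of 14884 genes there (0%), with 503 (3.38%) at an unadjusted p under 0.05, 2.14% of all genes higher and 1.24% lower, and limma-voom called 2 (Colq and Kcnk3). Without oil, 47 of 50 mitosis genes were higher with Corexit 9527, 16 of them at an unadjusted p under 0.05, and their median log2 fold change was 0.562. Without female Corexit 9527 mouse 11, a library with 38.38% of its counts on mitochondrial genes, all 50 were higher and 11 were at an unadjusted p under 0.05, with a median of 0.498, where 5.24% of all genes were (2.49% higher and 2.75% lower). With oil, 41 of 49 were lower with 9527+oil, 7 of them at an unadjusted p under 0.05 (1.25% of all genes), and the median was -0.326. The latter was -0.645 in female and -0.057 in male mice, where 16 of 50 were higher and none was at an unadjusted p under 0.05, and -0.132 over both sexes, with 3 members lower at an unadjusted p under 0.05 (1.54% of all genes), without mouse 14, the only mixture mouse whose mitosis genes lay above the mean of the 36 mice. The members with the smallest p were Casc5, a kinetochore protein (-0.88 ± 0.304), Mad2l1 of the spindle checkpoint (-0.5 ± 0.202) and Anln, an actin-binding protein of cytokinesis (-0.55 ± 0.228), with unadjusted p values of 0.0133, 0.0294 and 0.032. Without mouse 14 they were at -0.54, -0.3 and -0.29. Over all mixture mice the summed level of the list was 214 to 312 CPM with 9527+oil and 286 to 572 CPM with 9500+oil, beside 388 to 941 CPM with Corexit 9527 and 298 to 764 CPM with Corexit 9500. It was 278 to 462 CPM with oil and 183 to 533 CPM with saline, a range that holds that of 9527+oil.

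The interaction of dispersant and oil tested the difference between these contrasts. It shares the 12 mixture mice with the main comparison. edgeR called none of 15306 genes (0%), 1426 (9.32%) were at an unadjusted p under 0.05 (1.62% higher), and DESeq2 called 2 (Pfkfb4 and Zfp799). Of 50 mitosis genes, 45 had a negative interaction, 31 of them at an unadjusted p under 0.05 (7.7% of all genes), with a median of -0.928. Without mouse 14 and female Corexit 9527 mouse 11, the other library of these 24 with over 20% of its counts on mitochondrial genes, 518 genes (3.36%) were at an unadjusted p under 0.05 (1.58% higher). The mitosis count was then 16 of 50 (1.78% of all genes) and the median -0.671. Among genes with a mean of at least 1 CPM and a symbol other than a clone or model name, the 4 smallest p values were those of Lrrc46, Kbtbd3, Ccna2 and mt-Co3 (adjusted p = 0.501 for each). Lrrc46 had a positive interaction of 1.08 ± 0.279 (unadjusted p = 0.000804), and Kbtbd3 had -3.51 ± 0.911 (unadjusted p = 0.000847). The fitted value of Kbtbd3 rests on low levels, with 0 to 1.26 CPM in Corexit 9500 mice. Its highest 9500+oil level, 3.91 CPM, was that of mouse 14. For mt-Co3 it was -1.48 ± 0.395 (unadjusted p = 0.00112), and -0.93 without the 2 libraries. Ccna2, the cyclin of S phase and mitosis, had an interaction of -1.32 ± 0.351 (unadjusted p = 0.00106) and of -0.95 without the 2 libraries. For the proliferation markers Mki67 and Top2a the values were -1.04 ± 0.378 (unadjusted p = 0.0113) and -0.97 ± 0.382 (unadjusted p = 0.0188), and without the 2 libraries -0.64 (unadjusted p = 0.06) and -0.63 (unadjusted p = 0.078). The 49 DNA replication genes had a median interaction of -0.373, beside 0.347 for the dispersants without oil and -0.048 with oil. The median with oil was -0.001 without mouse 14, with 24 members on either side.

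Mmp12, the elastase of macrophages, had the smallest interaction p within the panel of 20 genes. It was at 6.01 to 9.07 CPM with 9527+oil and 6.79 to 14.2 CPM with 9500+oil, within or near the 5.96 to 12.2 CPM of saline mice. Without oil it was at 23.5 to 88.8 CPM with Corexit 9527 and 7.18 to 60.9 CPM with Corexit 9500. The log2 fold change of the dispersants was 1.27 ± 0.376 without oil (unadjusted p = 0.00534) and -0.4 ± 0.187 with oil (unadjusted p = 0.0538; -0.26 and 0.0964 without mouse 14), and the interaction was -1.57 ± 0.478 (unadjusted p = 0.00338, adjusted p = 0.501). Chil3, a chitinase-like protein of activated macrophages, had medians of 264 CPM with 9527+oil, 351 CPM with 9500+oil, 959 CPM with Corexit 9527 and 468 CPM with Corexit 9500. Sprr1a, a protein of stressed squamous epithelium, was at 0.435 to 1.91 CPM and 1.03 to 3.2 CPM with the mixtures and at 3.09 to 79.1 CPM with the dispersants without oil. The mixtures did not overlap with the dispersants without oil for Sprr1a except where the highest 9500+oil mouse, mouse 14, lay above the lowest Corexit 9500 mouse.

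The airway mucin Muc5ac had medians of 12.8 and 10.6 CPM in the mixtures and 47.1 and 31 CPM with Corexit 9527 and Corexit 9500 without oil. The mixtures, at 6.93 to 21.4 CPM, overlapped both dispersants, and single oil and saline mice reached 84.2 and 243 CPM. Between the mixtures its log2 fold change was 0.12 ± 0.244 (unadjusted p = 0.647), and for Retnla, a secreted protein of macrophages and epithelium under IL-4 and IL-13, it was -0.06 ± 0.558 (unadjusted p = 0.915) and 0.21 without mouse 14. The intervals ran from -0.415 to 0.644 for Muc5ac and from -1.27 to 1.15 for Retnla, so that of Retnla held a 2-fold difference in either direction. Alternative activation genes of macrophages had a median of 0.047 over 22 members with oil, which was -0.005 without mouse 14, and of 0.466 in the mice without oil. For 33 alveolar macrophage and lipid handling genes the medians were -0.133 with oil and 0.261 without it, and they were -0.07 without mouse 14 and 0.161 without female Corexit 9527 mouse 11. Sftpc of type 2 cells (-0.13 ± 0.183), Scgb1a1 of club cells (-0.21 ± 0.151, and -0.11 without mouse 14) and the mucin Muc5b (0.33 ± 0.183) had unadjusted p values of 0.479, 0.18 and 0.0967 between the mixtures.

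**Figure D4:**
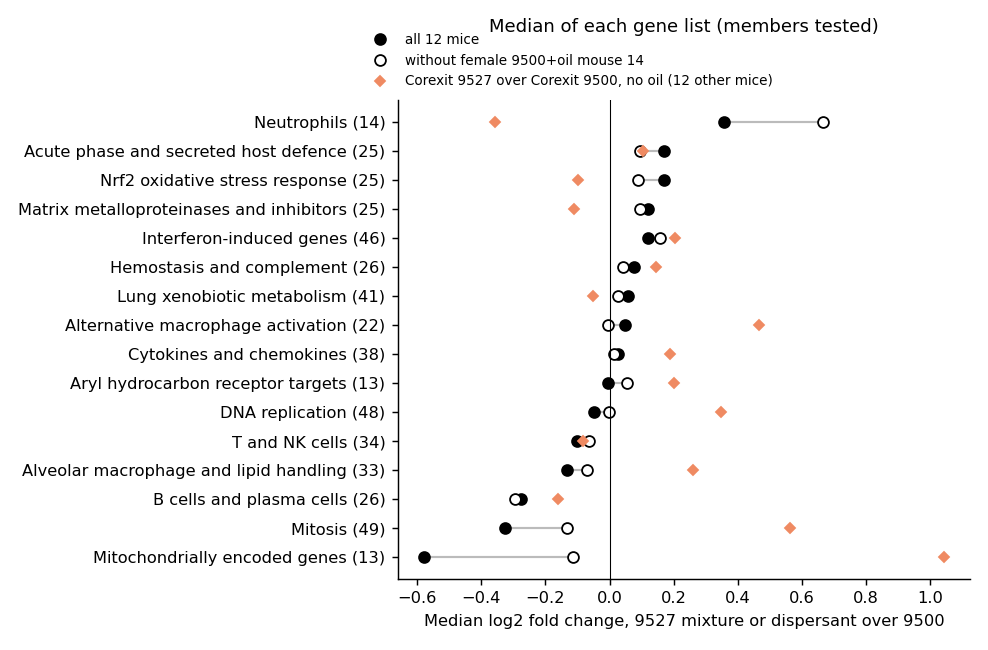
Median log2 fold change of each of 16 gene lists, with the number of tested members in brackets. Filled circles are all 12 mixture mice, open circles leave out female 9500+oil mouse 14, and diamonds are the dispersants without oil, where mitosis genes lie at 0.562 against -0.326 with oil. The diamonds include female Corexit 9527 mouse 11. Without it mitosis genes were at 0.498, and mitochondrially encoded genes went from 1.044 to -0.111.

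**Figure D5:**
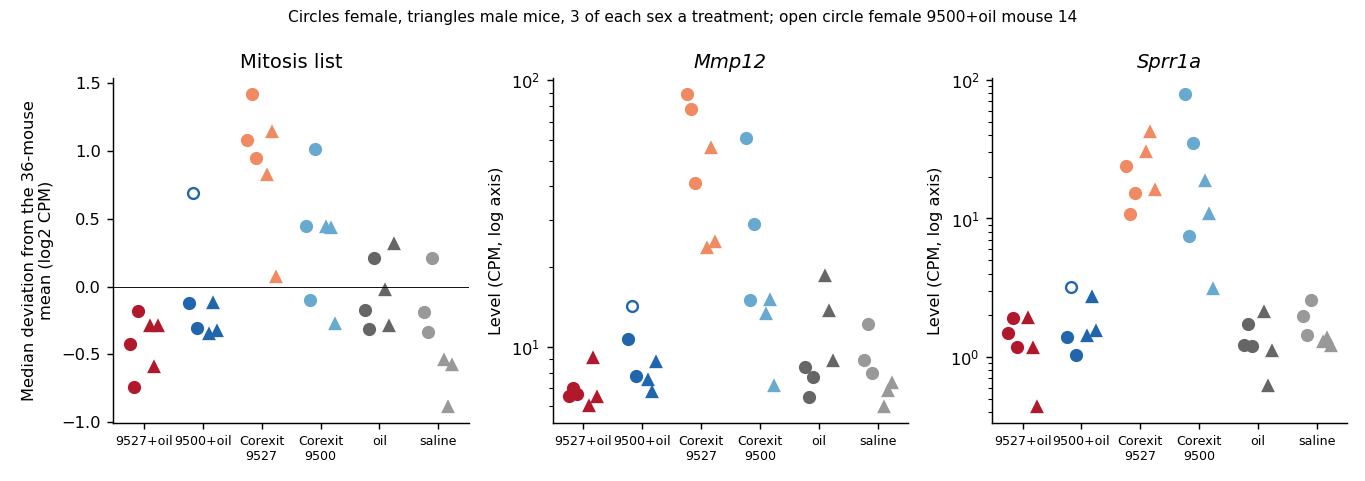
Left, median deviation of the mitosis genes from their mean over the 36 mice (log2 CPM) in each mouse. Middle and right, level of Mmp12 and Sprr1a in CPM on a log axis, where the mixtures lie near oil and saline and both dispersants without oil mostly above them.

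Female and male mice were then compared within the mixtures. edgeR called none of 14819 genes (0%) in female and none of 14987 genes (0%) in male mice. Unadjusted, 186 genes (1.26%) had a p under 0.05 in female mice, 0.263% higher and 0.992% lower, and 321 genes (2.14%) in male mice, 1.05% higher and 1.09% lower. These counts moved widely when 1 mouse was left out, from 52 without mouse 17 to 976 without mouse 15 in female mice and from 239 without mouse 15 to 1202 without mouse 16 in male mice. DESeq2 called 1 gene in female (Gm5537) and 4 in male mice (Cyp2a5, Mef2c and the predicted genes Gm13835 and Gm28048). The interaction of sex and mixture called 1 of 15288 genes (0.00654%), Mef2c, a transcription factor of muscle, endothelial and B cells, with 348 (2.28%) at an unadjusted p under 0.05, 1.78% higher and 0.497% lower. Leaving out 1 mouse gave 171 (without female 9527+oil mouse 17) to 1852 genes (without female 9500+oil mouse 15) at that p. Mef2c was at 14.6, 12.3 and 14.1 CPM in female and 2.88, 3.26 and 2.72 CPM in male 9527+oil mice. With 9500+oil it was at 19.9, 39.9 and 14.9 CPM in female mice and at 0, 0.15 and 0.0425 CPM, or 0 to 3 counts, in male mice. The interaction was 6.34 ± 0.73 on the log2 scale (adjusted p = 0.0346 in edgeR's test), a fitted value that depends on how counts near 0 are treated. The call was lost with a minimum of 10 counts for each mouse and on leaving out any 1 of 9 of the 12 mice. Mef2c was also listed at 0 CPM in mice of each other treatment, so its level was uneven throughout.

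By the same limits on level and symbol, the next smallest p values of the interaction with sex were those of Cyp2a5, Efr3b and Amph. Cyp2a5, a monooxygenase of airway epithelium and liver that metabolizes nicotine, was at 47.1, 54.8 and 53 CPM in male 9527+oil mice against 30.1, 31 and 26.7 CPM in male 9500+oil mice. In female mice it was at 48.3, 32 and 41.2 CPM against 50.1, 50.4 and 49.9 CPM. The log2 fold change was 0.82 ± 0.104 in male and -0.3 ± 0.217 in female mice, with an interaction of 1.124 ± 0.231 (unadjusted p = 0.000442, adjusted p = 0.789). Efr3b and Amph, which act at the plasma membrane and in endocytosis, were higher in female and lower in male 9527+oil mice, with interactions of -2.82 ± 0.617 and -2.46 ± 0.602 (adjusted p = 0.789 for both).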

How the data were processed

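RNA of the left lung of 36 mice was sequenced from stranded mRNA libraries. Per the study's methods and the labels, the authors estimated reads per GRCm38 transcript with Salmon and combined them with tximport. They deposited the expected counts, not normalized, in a table for female mice (18120 rows) and one for male mice (18295 rows), and all values were already whole numbers. Versions are not given in the sources used here. The tables were joined on the gene symbol (17716 names in both). In each, 4 rows that shared a name were left out (0.0103% and 0.0128% of counts), and 24 rows named by a date were kept but not named. Of 18691 names, 98.67% matched GENCODE M21, from which positions were taken.

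Genes were tested with the quasi-likelihood test of edgeR 4.0.16 in R 4.3.3, with TMM normalization, filterByExpr, sex as a covariate and Benjamini-Hochberg adjustment over all genes tested. A standard error is the log2 fold change divided by the square root of F, and intervals are at 95%. The test was checked on simulated counts. Levels are CPM with TMM library sizes over 36 mice. Alternatives were DESeq2 1.42.0, limma-voom (limma 3.58.1) with quality weights, other size factors and filters, GC and length offsets, mitochondrial genes left out, a fit of all 36 mice, leaving out sex as a term, and leaving out each mouse. Named genes are the 12 higher and 12 lower with the smallest p (mean of at least 1 CPM, no clone or model names), the 3 smallest p of each list discussed, a panel of 20 genes and, by the same limits, the 4 smallest p of each interaction. Members, lists and rules were chosen with earlier results of these data known. Lists are described by counts and medians, with no test. A result on 1 gene is not reported here.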

Additional observations from a re-analysis of the deposited data

Results flagged for a closer look

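In 90 sets of 6 mice of a mixture (library measures, the genes with the smallest p and the panel), 11 values lay far from the other 5 by Dixon's test, which flags about 1 in 20 sets by chance. Of these, 7 were of female 9500+oil mouse 14, namely a mitochondrial share of 20.67%, a GC ratio of -2.216 on the log2 scale, and 81.6 CPM of Tiparp, 101 CPM of Mki67, 52.2 CPM of Top2a, 51.3 CPM of Adpgk and 3.91 CPM of Kbtbd3. Male 9527+oil mouse 16 held 204 CPM of Cyp1a1 and 27.6 CPM of Cyp1b1. The others were 9.07 CPM of Mmp12 in male 9527+oil mouse 17 and 7.64 CPM of Ighg1 in male 9500+oil mouse 14. The sexes are pooled in these sets, so a difference between the sexes widens the range.

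The difference between the mixtures differed between the sexes for Mef2c, with an interaction of 6.337 on the log2 scale (adjusted p = 0.0346 in edgeR's test), and counts of 0 to 3 in the male 9500+oil mice.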

How the results depend on the processing

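The count of genes past an adjusted p of 0.05 between the mixtures stayed at 0 in 10 of 11 alternatives and without any single mouse; DESeq2 called 1. In female mice DESeq2 called 1 and limma-voom 2 in place of 0, and in male mice DESeq2 called 4 in place of 0, with 0 to 1 when 1 mouse was left out (Gm14288 without male 9500+oil mouse 14). For the interaction of sex and mixture DESeq2 called 9, limma-voom 2 and a minimum of 10 counts for each mouse 0 in place of 1, and leaving out 1 mouse gave 0 to 2. Mef2c remained called without female 9500+oil mouse 14 or 15 or male 9500+oil mouse 14 and was lost without each of the other 9. For the dispersants without oil limma-voom called 2, and for the interaction of dispersant and oil DESeq2 called 2 and limma-voom 1, in place of 0. The cause was not tested.

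The 273 genes at an unadjusted p under 0.05 became 136, 142 and 159 without female 9527+oil mice 16, 17 and 18, 462, 448 and 507 without female 9500+oil mice 13, 14 and 15, and 433 without male 9527+oil mouse 16, and 101 with all 36 mice in one fit. Leaving out 1 mouse moved the 503 of the dispersants without oil to 207 (female Corexit 9500 mouse 8) to 933 (female Corexit 9527 mouse 10), and the 1426 of the interaction with oil to 558 (female 9500+oil mouse 14) to 2254 (female Corexit 9527 mouse 10). With limma-voom these 2 counts were 2461 and 1763. Of 1851 values of the 81 named genes under another setting or without a mouse, 1825 kept their direction, and 1, that of Pcx with DESeq2, passed an adjusted p of 0.05. The 26 that reversed were in 9 genes. With limma-voom Tiparp was at 0.055, Chil3 at 0.056, Retnla at 0.511 and Efr3b at -0.104. With GC and length offsets Tiparp was at 0.045, Chil3 at 0.028, Retnla at 0.083 and Muc5ac at -0.098. Retnla was at 0.19 with all 36 mice in one fit and Mef2c at -0.578 with no sex term. Without both mice numbered 16, Cyp1b1 was at -0.131, Chil3 at 0.032 and Retnla at 0.297. Over the fits that left out 1 mouse, Retnla ran from -0.605 to 0.209, Efr3b from -0.099 to 0.548, Tiparp from -0.307 to 0.004, Cyp1b1 from -0.028 to 0.32, Sftpc from -0.208 to 0.009, Amph from -0.045 to 0.544 and Muc5ac from -0.189 to 0.227. Other values that moved by over 1.5 times with limma-voom included those of Cyp1a1 (0.838), Ces1g (0.784), Ces1f (0.577), Nqo1 (0.56), Dopey2 (0.436), C4b (0.359), Gzmb (0.205), Hmox1 (0.119), Scgb1a1 (-0.059), Anln (-0.221), Fdft1 (-0.294), Mad2l1 (-0.308), Igkc (-0.478), Adpgk (-0.502) and Casc5 (-0.541). With GC and length offsets they included Muc5b (0.169), Hmox1 (0.126), Cdkn1a (0.099), Mmp12 (-0.211), Sftpc (-0.266), Mad2l1 (-0.283), Anln (-0.35), Ms4a1 (-0.361), Emcn (-0.372) and mt-Co3 (-0.483), and with no sex term Dopey2 (0.401). Without female 9500+oil mouse 14 the median of mitosis genes was -0.132 and that of mitochondrially encoded genes -0.114. No paired analysis was possible because the 2 mixtures share no mouse number and nothing in the labels pairs their mice. Counts of 3 or fewer limit what can be said of Mef2c in male 9500+oil mice and of genes near 1 CPM.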

Other observations

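Beside the 16 lists described, 31 other lists were read, among them homologous recombination, the immediate early response, markers of alveolar type 1 and type 2 cells, ciliated cells, endothelium, fibroblasts and smooth muscle, the p53, unfolded protein and heat shock responses and the clock. Their medians between the mixtures ran from -0.132 to 0.156 and from -0.2 to 0.133 without female 9500+oil mouse 14. Of 863 list memberships tested, 3 were higher and 7 lower at an unadjusted p under 0.05, beside 0.594% and 1.25% of all genes. Without that mouse 8 were higher and 17 lower of 865, beside 1.46% and 1.54%. Markers of tissue next to the lung overlapped between the mixtures, with summed levels of 410 to 719 CPM against 438 to 793 CPM for cardiac muscle, 263 to 325 CPM against 146 to 357 CPM for adipocytes and 940 to 1270 CPM against 846 to 1100 CPM for mesothelium.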
